A study of Mus musculus with 8 samples.

Results

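The 10 genes described here encode the main structural proteins of the basement membrane, namely the laminin chains *Lama1*, *Lama5*, *Lamb1* and *Lamc1*, the collagen IV chains *Col4a1* and *Col4a2*, the nidogens *Nid1* and *Nid2*, perlecan (*Hspg2*) and the matrix glycoprotein SPARC (*Sparc*). They were selected by gene symbol, and all 10 were found among the 19751 genes that could be named on the array. All 10 also belonged to the 13653 genes tested, and the brightest probe of each was well above background on all 8 arrays.

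RNA levels were read with one-colour Agilent arrays from VV3 ESCs, a male mouse line that carries a *Vasa*::Venus reporter and grows on mitotically inactivated STO feeder cells in medium with serum and LIF. Control ESCs (4 biological replicates) received the non-silencing AllStars siRNA, and *L3mbtl2*-KD ESCs (4 biological replicates) received siRNA against *L3mbtl2*, a subunit of the polycomb complex PCGF6-PRC1. By the methods, *Vasa*-positive cells sorted from the cells with *L3mbtl2* siRNA were set against AllStars-treated ESCs, for which no sort is stated on these arrays. The knockdown and the sort for *Vasa* therefore cannot be told apart in any difference between the groups. Values are log2 signal intensities minus the 75th percentile of the array, so a difference of 1 is a 2-fold change, and a value is meaningful only against the same probe on another array.

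The signal of *L3mbtl2* was 0.27, -0.18, -0.21 and -0.31 in control replicates 1 to 4 and -1.45, -1.26, -1.58 and -1.73 in *L3mbtl2*-KD replicates 1 to 4, which is 37.9% of the control level (log2 fold change -1.40, standard error 0.15, adjusted p = 0.00094 in limma). *Ddx4* (*Vasa*), the gene behind the reporter, lay between 0.85 and 0.99 in control ESCs and between 3.62 and 3.87 in *L3mbtl2*-KD ESCs. Both genes differed between the groups in the direction that the labels and the sort for *Vasa* imply.

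A basement membrane is a thin sheet of matrix on which epithelial cells rest. Laminins are trimers of an alpha, a beta and a gamma chain that polymerise on the cell surface, collagen IV forms a covalent network beside them, and nidogens and the proteoglycan perlecan connect both networks. In the early mouse embryo the primitive endoderm and its parietal derivative secrete large amounts of laminin and collagen IV, ESCs also make laminin, and fibroblasts such as feeder cells make collagen IV, nidogens and SPARC.

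Of the 10 basement membrane genes 6 were down-regulated in *L3mbtl2*-KD ESCs, and the size of the change differed widely among them. *Lama1*, *Col4a1* and *Col4a2* fell to 22.1%, 27.4% and 22.9% of the control level, *Lamb1* and *Nid1* to 57.0% and 57.8%, and *Sparc* to 75.8%. *Hspg2*, *Nid2*, *Lamc1* and *Lama5* did not pass the test (adjusted p under 0.05 on the brightest probe). In a fit with the replicate number as a block *Hspg2*, *Nid2* and *Lamc1* passed with lower expression (23.8% of all genes did), and *Lama5* did not. Calling a gene required a difference above 2-fold and an adjusted p under 0.05 on the same probe, and 4 of the 10 genes were called down-regulated (*Lama1*, *Col4a1*, *Col4a2* and *Nid1*), against 3.21% of all genes tested. The call of *Nid1* rests on a dim probe with a clear signal on 1 of the 4 *L3mbtl2*-KD arrays. Leaving such probes out of the 10 genes, 3 were called (*Lama1*, *Col4a1* and *Col4a2*). The share of all genes was counted with such probes included. None of the 10 genes was called up-regulated in limma, against 2.49% of all genes, and none was higher at an unadjusted p under 0.05 in limma or in the one-way test of the methods. At any fold, 6 of the 10 genes passed the test with lower expression (10.8% of all genes were lower and 9.35% higher), and in 5 of the 10 all *L3mbtl2*-KD samples lay below all control samples (13.8% of all genes, with 12.65% in the other direction). The median log2 fold change was -0.59 over the 10 genes and -0.01 over all genes tested. Fewer cells of a type and less RNA per cell cannot be told apart in these bulk samples.

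**Figure D1:**
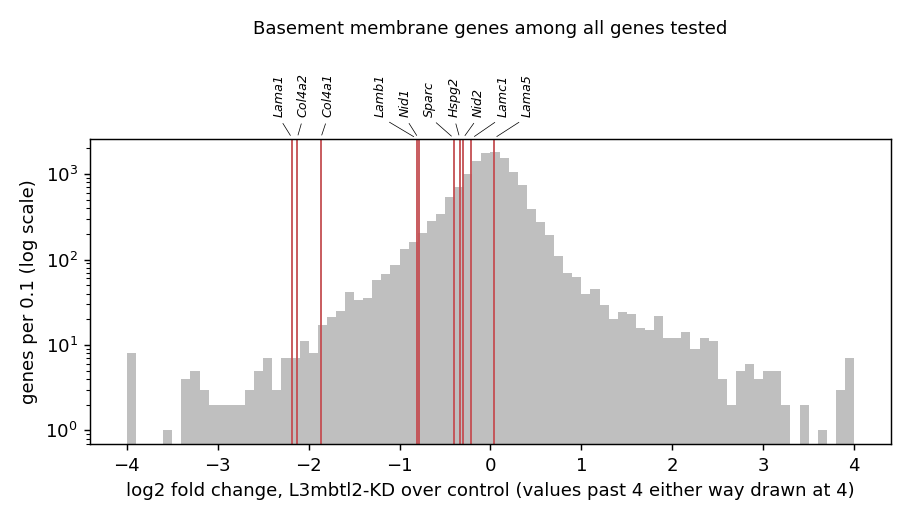
Distribution of the log2 fold change (*L3mbtl2*-KD over control ESCs) of all 13653 genes tested, counted in bins of 0.1 on a log axis, with the 10 basement membrane genes as red lines. The genes lie between -2.18 (*Lama1*) and 0.04 (*Lama5*), and 9 of the 10 lie below 0.

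Among the laminin chains, *Lama1*, the alpha chain of laminin-111, which is typical of the early embryo, changed the most. Its signal was 3.74, 3.39, 3.49 and 3.82 in control replicates 1 to 4 and 1.68, 1.85, 1.37 and 0.83 in *L3mbtl2*-KD replicates 1 to 4. Every *L3mbtl2*-KD sample lay below every control sample, and replicate 4 was the lowest in *L3mbtl2*-KD ESCs while it was the highest in control ESCs. The level was 4.53-fold lower (log2 fold change -2.18, standard error 0.22, 95% interval -2.67 to -1.69, adjusted p = 0.00063 in limma, exact permutation p = 0.0286, the smallest that 4 against 4 samples allow). The 2 slides, each of which held 2 arrays of either group, gave log2 fold changes of -1.80 and -2.56, and the adjusted p was 0.00061 with the slide as a block.

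*Lama5*, the alpha chain of laminin-511, the other laminin alpha chain of the early embryo, gave 2.62, 2.80, 2.66 and 3.03 in the control samples and 2.70, 2.82, 2.76 and 2.97 in the *L3mbtl2*-KD samples. The groups overlapped completely, and the difference was smaller than the spread between replicates (log2 fold change 0.04, 95% interval -0.22 to 0.29, adjusted p = 0.86). Its sign depended on the samples kept (-0.02 to 0.12 when 1 was left out), and the adjusted p was 0.48 or higher under every alternative tried.

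*Lamb1* encodes the beta chain of both of these trimers. Signals of 2.92, 3.18, 2.93 and 3.29 were measured in the control samples and 2.09, 2.58, 2.28 and 2.11 in the *L3mbtl2*-KD samples. The groups did not overlap, and replicate 2 was the highest of the *L3mbtl2*-KD samples. The level was 1.75-fold lower (log2 fold change -0.81, standard error 0.14, adjusted p = 0.0062, and -0.71 and -0.91 within the slides, with an adjusted p of 0.0078 with the slide as a block).

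*Lamc1* encodes the gamma chain that completes both trimers. It had signals of 3.78, 4.10, 4.04 and 4.35 in control ESCs and 3.61, 3.84, 3.95 and 4.04 in *L3mbtl2*-KD ESCs. Each *L3mbtl2*-KD sample was below the control sample of the same number, but the groups overlapped, and the gene did not pass the test (log2 fold change -0.21, 95% interval -0.53 to 0.11, adjusted p = 0.34). It passed at the same fold change with the replicate number as a block (adjusted p = 0.035), the lowest value of a range of 0.035 to 0.61 over the alternatives. When 1 sample was left out, the log2 fold change of *Lamc1* was -0.30 to -0.12.

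Both collagen IV chains were down-regulated. They form the alpha1-alpha1-alpha2 trimer found in almost all basement membranes, and their genes lie head to head. For *Col4a1* the signals were 0.23, 0.44, 0.35 and 0.88 in control replicates 1 to 4 and -1.73, -0.95, -1.34 and -1.56 in *L3mbtl2*-KD replicates 1 to 4. *Col4a2* followed with 0.04, 0.37, 0.40 and 0.80 in the control samples and -2.10, -1.25, -1.50 and -2.05 in the *L3mbtl2*-KD samples. In both genes the groups were clearly apart, control replicate 4 was the highest control sample, control replicate 1 the lowest, *L3mbtl2*-KD replicate 2 the highest *L3mbtl2*-KD sample and *L3mbtl2*-KD replicate 1 the lowest. *Col4a1* was 3.65-fold lower (log2 fold change -1.87, standard error 0.20, adjusted p = 0.00082) and *Col4a2* 4.37-fold lower (log2 fold change -2.13, standard error 0.23, adjusted p = 0.00089). Within the slides the log2 fold changes were -1.68 and -2.06 for *Col4a1* and -1.88 and -2.37 for *Col4a2*, and with the slide as a block both adjusted p-values were 0.0012.

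**Figure D2:**
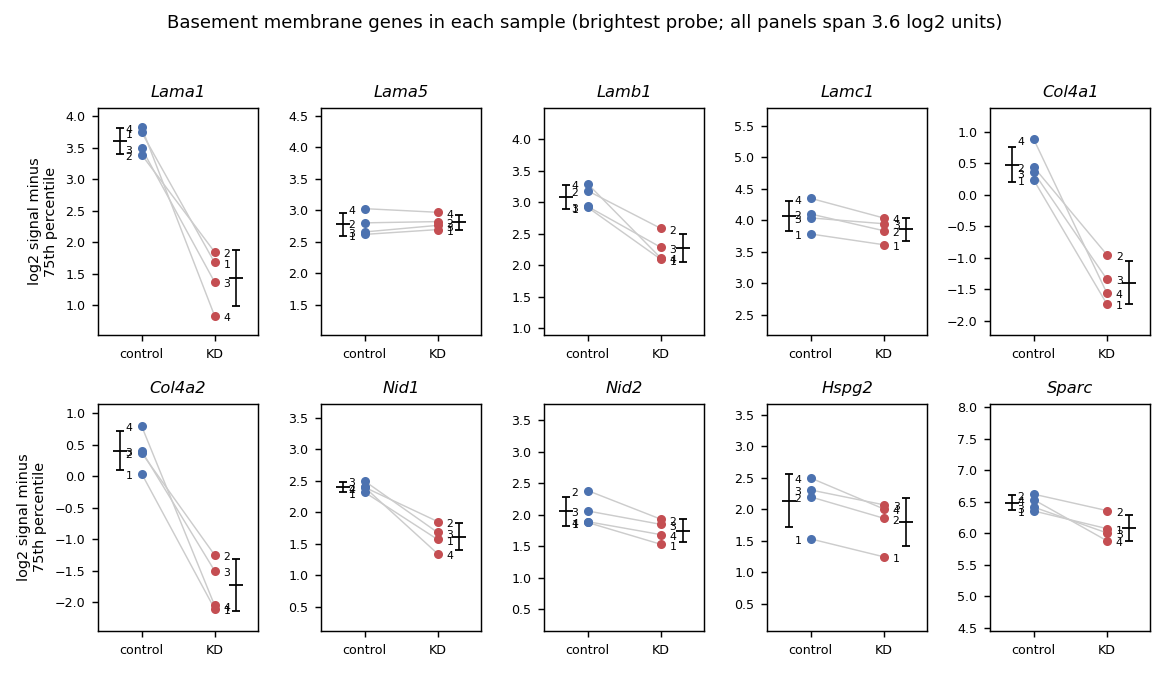
Log2 signal minus the 75th percentile of the array for the brightest probe of each basement membrane gene in control (blue) and *L3mbtl2*-KD (red) ESCs, with replicate numbers beside the points, grey lines between samples of the same number and black bars for mean and SD (n = 4). *Lama1*, *Lamb1*, *Col4a1*, *Col4a2* and *Nid1* show separate groups, whereas the groups overlap in the other 5 genes.

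The nidogens bind laminin and collagen IV. *Nid1* was measured by 3 probes, the brightest of which gave 2.32, 2.40, 2.50 and 2.40 in the control samples and 1.57, 1.86, 1.68 and 1.35 in the *L3mbtl2*-KD samples. The control samples lay close together, and all *L3mbtl2*-KD samples lay below them. The level on this probe was 1.73-fold lower (log2 fold change -0.79, standard error 0.12, adjusted p = 0.0032, and -0.65 and -0.93 within the slides, with an adjusted p of 0.0037 with the slide as a block). The second probe gave a log2 fold change of -0.76 (adjusted p = 0.020). The dimmest probe gave -1.32. It entered the test through the control arrays and exceeded background clearly on 1 of the 4 *L3mbtl2*-KD arrays, so no p is given for it. The 2-fold call of *Nid1* rests on that dim probe, and the gene was not called without control replicate 1 or control replicate 3, which leave 3 called genes.

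*Nid2* gave 1.88, 2.39, 2.06 and 1.89 in control ESCs and 1.54, 1.93, 1.85 and 1.69 in *L3mbtl2*-KD ESCs. *L3mbtl2*-KD replicate 2 lay above control replicates 1 and 4, and the gene did not pass the test (log2 fold change -0.30, 95% interval -0.62 to 0.02, adjusted p = 0.17). As for *Lamc1*, it passed at the same fold change in the fit with the replicate number as a block (adjusted p = 0.016, range over the alternatives 0.016 to 0.33). Leaving out 1 sample gave log2 fold changes of -0.36 to -0.19 for *Nid2*.

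Perlecan carries heparan sulfate chains and links the networks to growth factors. *Hspg2* gave 1.53, 2.19, 2.30 and 2.49 in the control samples and 1.24, 1.86, 2.07 and 2.00 in the *L3mbtl2*-KD samples. Replicate 1 was the lowest in both groups, and the groups overlapped (log2 fold change -0.34, 95% interval -0.90 to 0.22, adjusted p = 0.38). The log2 fold change was -0.54 to -0.15 when 1 sample was left out. A second, dimmer probe gave -0.35 (adjusted p = 0.20). *Hspg2* likewise passed with the replicate number as a block (adjusted p = 0.011, range over the alternatives 0.011 to 0.68).

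SPARC binds collagen and is made by parietal endoderm and fibroblasts. *Sparc* had 2 probes, and the brighter gave 6.35, 6.62, 6.41 and 6.53 in the control samples and 6.07, 6.36, 6.004 and 5.88 in the *L3mbtl2*-KD samples. *L3mbtl2*-KD replicate 2 was barely above control replicate 1, and the other *L3mbtl2*-KD samples lay below all controls. Its level was 75.8% of the control level (log2 fold change -0.40 with a standard error of 0.12, adjusted p = 0.049), and the dimmer probe gave -0.46 (adjusted p = 0.039) with no overlap. The gene passed narrowly and lost its call on the brighter probe when any single sample other than *L3mbtl2*-KD replicate 2 was left out, with log2 fold changes from -0.44 to -0.33 and adjusted p-values from 0.052 to 0.12 in those 7 fits. Within the slides the log2 fold change was -0.27 and -0.53, and the adjusted p was 0.034 with the slide as a block.

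**Figure D3:**
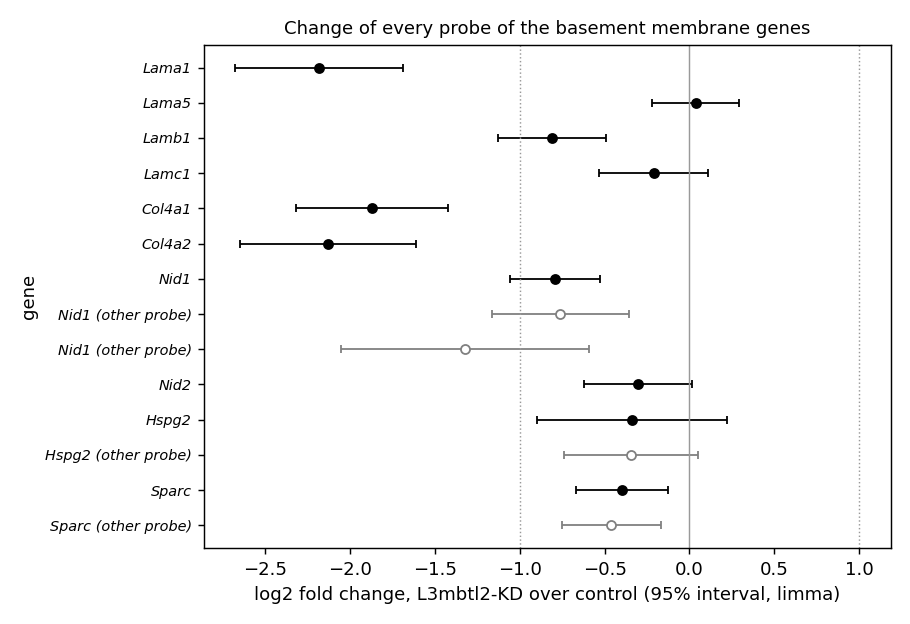
Log2 fold change (*L3mbtl2*-KD over control ESCs) with its 95% interval from limma for all 14 probes of the basement membrane genes, with the brightest probe of a gene as a filled and other probes as an open circle, and dotted lines at a 2-fold change. Probes of the same gene changed in the same direction, and the dimmest *Nid1* probe lies at -1.32.

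With the replicate number as a block, 9 of the 10 genes passed with lower expression, the exception being *Lama5*, against 23.8% of all genes lower and 22.2% higher in the same fit. Control replicate 1 was the lowest control sample in 9 of the 10 genes, the exception being *Lama1*, while it was the lowest in 31.4% of all genes. Without it the log2 fold changes were -2.14 for *Lama1*, -1.95 for *Col4a1*, -2.25 for *Col4a2*, -0.86 for *Lamb1* and -0.82 for *Nid1*. Without control replicate 1 *Hspg2* was at -0.54 and *Lamc1* at -0.30, the lowest values of these genes when 1 sample was left out. *L3mbtl2*-KD replicate 1 was the lowest *L3mbtl2*-KD sample in 7 of the 10 genes and *L3mbtl2*-KD replicate 4 in the other 3 (*Lama1*, *Nid1* and *Sparc*). Over all 13608 genes with a value on every array, *L3mbtl2*-KD replicate 1 was the lowest in 4288 and *L3mbtl2*-KD replicate 4 in 2854 (21%).

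Since chains of a trimer are made by different genes, the difference between related genes was also compared within each array. *Lama1* minus *Lama5* was 1.12, 0.59, 0.83 and 0.79 in the control samples and -1.02, -0.98, -1.40 and -2.14 in the *L3mbtl2*-KD samples. The ratio of the alpha chains was thus 4.65-fold lower in *L3mbtl2*-KD ESCs, with no overlap (difference of change -2.22, standard error 0.29). *Lamb1* minus *Lamc1* was -0.87, -0.92, -1.11 and -1.06 in the control samples and -1.52, -1.25, -1.66 and -1.92 in the *L3mbtl2*-KD samples, and all *L3mbtl2*-KD samples lay below all controls (difference of change -0.60, standard error 0.15). *Nid1* minus *Nid2* was 0.44, 0.01, 0.43 and 0.51 in the control samples and 0.04, -0.08, -0.17 and -0.34 in the *L3mbtl2*-KD samples, where *L3mbtl2*-KD replicate 1 lay above control replicate 2 (difference of change -0.49, standard error 0.14). *Col4a1* minus *Col4a2* was 0.19, 0.07, -0.05 and 0.08 in the control samples and 0.37, 0.30, 0.16 and 0.49 in the *L3mbtl2*-KD samples (difference of change 0.26, standard error 0.08). This is a 1.20-fold difference. The exact permutation p was 0.0286 for the laminin pairs, the smallest that 4 against 4 samples allow, and 0.0571 for the others. After Benjamini-Hochberg adjustment over the 4 pairs all were at 0.0571, so none of the 4 differences passed in this test, which leaves the replicate numbers out. With so few samples a pair can pass after adjustment only when most of the 4 pairs reach the smallest p together. The adjusted result therefore cannot decide on a single pair, however large its difference. Between samples of the same number the ratio moved by -2.14, -1.56, -2.23 and -2.93 for *Lama1* and *Lama5*, and by -0.65, -0.33, -0.55 and -0.86 for *Lamb1* and *Lamc1*. For *Col4a1* and *Col4a2* it moved by 0.18, 0.23, 0.21 and 0.41, and for *Nid1* and *Nid2* by -0.40, -0.09, -0.60 and -0.85. Each pair thus moved in 1 direction in all 4 numbers, which an exact paired test cannot place below a p of 0.125.

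**Figure D4:**
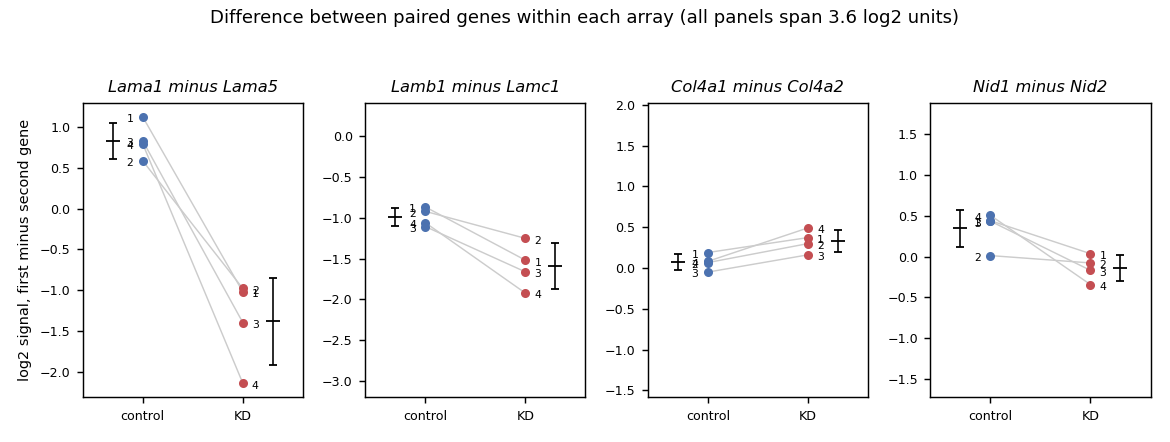
Log2 signal of the first minus the second gene of each pair within an array, in control (blue) and *L3mbtl2*-KD (red) ESCs, with replicate numbers, grey lines between samples of the same number and black bars for mean and SD (n = 4). Only the shift between the groups has a meaning, since the genes are read by different probes, and it was -2.22 for *Lama1* minus *Lama5* and 0.26 for *Col4a1* minus *Col4a2*.

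Because these genes changed to different degrees, their promoters were compared. RefSeq windows (GRCm38.p6) were at hand for 7 of the 10 genes, and *Lama1*, *Lamc1* and *Nid2* had none. The 250 bases before the transcription start were searched on both strands for CACGTG (E-box), GGGCGG (GC box), CCAAT (the box of that name), TATAAA (the TATA box), GATAAG (bound by GATA factors) and TTCCCGCC (E2F), which occur in 6.02%, 32.7%, 33.8%, 12.4%, 6.55% and 1.86% of all 32851 promoter windows of that length. The windows of *Lamb1* and *Nid1*, which fell to a similar degree, and of *Lama5*, which did not pass the test, are shown. They lie at chr12:31265043-31265292 (plus strand), chr13:13437352-13437601 (plus strand) and chr2:180225860-180226109 (minus strand). Each is written from 5′ to 3′ along its gene, and capitals mark a match on either strand.

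Lamb1: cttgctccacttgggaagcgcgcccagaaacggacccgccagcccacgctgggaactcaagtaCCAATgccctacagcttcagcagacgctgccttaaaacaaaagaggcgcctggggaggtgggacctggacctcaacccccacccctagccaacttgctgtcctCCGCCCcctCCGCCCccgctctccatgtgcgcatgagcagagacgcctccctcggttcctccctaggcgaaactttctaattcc
Nid1: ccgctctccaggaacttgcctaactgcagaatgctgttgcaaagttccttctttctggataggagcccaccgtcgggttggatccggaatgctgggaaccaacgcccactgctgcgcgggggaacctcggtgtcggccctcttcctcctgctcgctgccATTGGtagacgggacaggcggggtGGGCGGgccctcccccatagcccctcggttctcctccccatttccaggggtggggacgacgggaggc
Lama5: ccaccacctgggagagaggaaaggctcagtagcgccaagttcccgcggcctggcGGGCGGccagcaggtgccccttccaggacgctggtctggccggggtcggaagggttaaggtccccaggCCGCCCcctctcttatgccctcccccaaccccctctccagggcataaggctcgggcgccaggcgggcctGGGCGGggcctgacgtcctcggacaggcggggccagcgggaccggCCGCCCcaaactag

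CCAAT was found in 4 of the 7 windows (*Lamb1*, *Nid1*, *Col4a1* and *Col4a2*) and not in those of *Lama5*, *Hspg2* and *Sparc*. It began 187 bases before the start of *Lamb1*, 91 before that of *Nid1*, 145 before that of *Col4a1* and 32 before that of *Col4a2*. GGGCGG was found in 5 windows, with 2 matches in *Lamb1*, 1 in *Nid1*, 4 in *Lama5*, 2 in *Col4a2* and 5 in *Hspg2*. The E-box, TATA box, GATA and E2F letters were found in none of the 7. The windows of *Col4a1* (chr8:11312827-11313076, minus strand) and *Col4a2* (chr8:11312555-11312804, plus strand) reach into the neighbouring gene. A match is a description of the letters and shows no binding, and a missing match says only that these letters are not in the window.

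Of 7 other laminin chains 4 were tested, and none passed the test in limma (at an unadjusted p under 0.05 1 was lower and 1 higher, and after adjustment the one-way test of the methods also gave 0). Their median log2 fold change was -0.17. It was -0.002 over the 3 chains with a clear signal on all arrays, which leave out *Lamb3*, and -0.11 over the 4 with normexp background correction. *Lama3*, chosen after its values were seen, was at 0.74 (adjusted p = 0.087). Its groups were barely apart, with the highest control sample at -1.28 and the lowest *L3mbtl2*-KD sample at -1.26. A second *Lama3* probe also gave 0.74 (adjusted p = 0.055), and its groups overlapped. The gene passed with higher expression when its probes were averaged (adjusted p = 0.032). Leaving out 1 sample gave 0.46 to 0.88 for *Lama3*. *Lamb3* (-1.52) passed with lower expression in the fit with the replicate number as a block and under 4 other alternatives. Its probe entered the test through the control arrays and had a clear signal on 2 of the 4 *L3mbtl2*-KD arrays, so no p is given for these fits. With normexp *Lamb3* was at -0.47 and did not pass (adjusted p = 0.14). Of the other 4 collagen IV chains 2 were tested, and neither passed at an adjusted or unadjusted p under 0.05 (median log2 fold change 0.05). *Col4a3* and *Col4a5* were not well above background on every array of a group. The collagen IV network of these cells was thus read from *Col4a1* and *Col4a2* and, on dim probes, *Col4a4* and *Col4a6*.

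Among 14 other basement membrane components 8 were tested, and the median was -0.55. Of the 8, 3 passed with lower expression (*Col18a1*, *Fbln2* and *Tinagl1*), against 10.8% of all genes. None passed with higher expression in limma (0 also at an unadjusted p under 0.05 and in the one-way test). *Tinagl1*, a secreted protein that binds laminin, gave -2.71, -0.70, -1.71 and -2.04 in the control samples and -4.62, -3.05, -2.74 and -3.89 in the *L3mbtl2*-KD samples. The groups were barely apart (log2 fold change -1.78, adjusted p = 0.042), and its call was lost without control replicate 2, 3 or 4 or without *L3mbtl2*-KD replicate 1, 2 or 4 (log2 fold change -1.96 to -1.42, adjusted p up to 0.10). With quantile normalization, no filter on dim probes and the adjusted one-way test, this makes 9 of 19 alternatives in which it was lost. *Fbln2*, a fibulin that binds nidogen, gave -1.001, -0.34, -0.63 and -0.15 in the control samples and -2.12, -1.38, -1.55 and -1.34 in the *L3mbtl2*-KD samples. Its groups did not overlap (log2 fold change -1.07, adjusted p = 0.014, and -0.92 with normexp, where *Tinagl1* was at -1.07). *Smoc2* and *Fbln1* passed as well with the replicate number as a block, which gives 5 of 8, against 23.8% of all genes lower in that fit. The probe of *Smoc2* entered the test through the control arrays and had a clear signal on 2 of the 4 *L3mbtl2*-KD arrays. With normexp *Smoc2* was at -0.60 and did not pass (adjusted p = 0.12).

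Of 13 receptors of the basement membrane 11 were tested, and 3, named here after their values were seen, passed with lower expression, against 10.8% of all genes. They were the laminin receptors *Itga3* (log2 fold change -0.70, adjusted p = 0.0037) and *Bcam* (-0.56, adjusted p = 0.0082) and the collagen receptor *Ddr1* (-0.34, adjusted p = 0.016), which lost its call without control replicate 3 (-0.32, adjusted p = 0.056). None of the 11 was called at 2-fold in limma, none was higher in limma, at an unadjusted p under 0.05 or in the one-way test, and the median was -0.25. The fit with the replicate number as a block gave a larger count, in which 8 of 11 passed with lower expression, all by less than 2-fold, against 23.8% of all genes.

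All 13 enzymes and chaperones that fold, modify and crosslink collagen were tested, none passed the test in limma, and the median was -0.14. At an unadjusted p under 0.05 2 were lower and 1 was higher, and the one-way test after adjustment gave 1 lower. The replicate block gave 3 with lower and 1 with higher expression, against 23.8% of all genes lower and 22.2% higher in that fit. On the brightest probes the log2 fold changes of all 13 lay between -0.39 and 0.31. Dimmer second probes, named after their values were seen, gave -0.71 for *P4ha1* (adjusted p = 0.11 in limma) and -0.40 for *Pxdn*. That of *Pxdn* passed (adjusted p = 0.041 in limma) with no overlap. The second probes of the other genes lay within the range.

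Genes of matrix turnover included several that fell. All 8 were tested, and the median was -0.97. Of the 8, 5 passed with lower expression (10.8% of all genes), 4 of them at more than 2-fold (3.21% of all genes). *Mmp2*, a protease that degrades collagen IV, gave -0.95, -0.09, -0.50 and -0.21 in the control samples and -2.52, -2.12, -2.18 and -2.31 in the *L3mbtl2*-KD samples. Its groups were clearly apart (log2 fold change -1.85, adjusted p = 0.00074). The other called genes were the heparanase *Hpse* (-1.32, adjusted p = 0.0075), which cleaves heparan sulfate, and the protease inhibitors *Timp2* (-1.14, adjusted p = 0.0017) and *Timp3* (-1.01, adjusted p = 0.011). *Timp3* was at -0.56 with normexp background correction, which leaves 3 called genes, and *Timp2* at -0.90 on its second probe. *Mmp9* and *Mmp14* did not pass without a block and passed with higher expression when the replicate number was one (adjusted p = 0.048 and 0.016). *Mmp9* also passed with quantile normalization (0.51, adjusted p = 0.010) and in the unadjusted one-way test.

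Several marker genes of cell types that make basement membrane were also lower in *L3mbtl2*-KD ESCs, while others of the same lists did not pass the test. Of 14 primitive endoderm markers 11 were tested, and the median was -1.10. Lower expression passed in 7 (10.8% of all genes), or in 9 with the replicate number as a block (23.8% of all genes). Of the 7, 6 were lower at more than 2-fold (3.21% of all genes). These counts include *Foxa2*, *Dab2* and *Sox17*, whose probes entered the test through the control arrays. Of the 8 markers with a clear signal on all 8 arrays 4 passed with lower expression, 3 of them (*Cubn*, *Pdgfra* and *Amn*) at more than 2-fold, and the median was -0.74. With normexp background correction 6 passed, 2 of them (*Cubn* and *Sox17*) at more than 2-fold, and the median was -0.69. Their summed signal, in units of the 75th percentile of the array, was 5.90, 5.01, 4.43 and 6.87 in the control samples and 2.98, 3.35, 2.88 and 2.83 in the *L3mbtl2*-KD samples, and the brightest gene was *Lrp2*, which was lower with the replicate number as a block (-0.47, adjusted p = 0.035) and did not pass without it (adjusted p = 0.094). All *L3mbtl2*-KD samples lay below all control samples in this sum. Of the defining markers, *Gata4* (log2 fold change -0.92, adjusted p = 0.0052) fell, while *Gata6* (0.06, adjusted p = 0.88) and *Sox7* (-0.56, adjusted p = 0.11) did not pass. *Sox17* was at -2.07, and no p is given for it because its probe entered the test through the control arrays. *Sox7* passed with the replicate number as a block (adjusted p = 0.013, range over the alternatives 0.013 to 0.28) and with the slide as a block (adjusted p = 0.031). Of the 4 *L3mbtl2*-KD arrays, 3 gave a clear *Sox17* signal over background.

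The endocytic receptor *Cubn* gave 0.83, 0.02, 0.03 and 1.03 in the control samples and -2.27, -2.39, -3.04 and -3.21 in the *L3mbtl2*-KD samples. It had the largest change of the primitive endoderm list (log2 fold change -3.20, adjusted p = 0.00054). *Dab2*, an adaptor of the same pathway, was at -2.53 and exceeded background clearly on 1 of the 4 *L3mbtl2*-KD arrays, so no p is given for it. *Pdgfra* (-1.50, adjusted p = 0.0065) also fell. Under normexp *Sox17* was at -1.10, *Dab2* at -0.95 and *Pdgfra* at -0.80. *Foxa2* was not well above background on any *L3mbtl2*-KD array and was at least 2.45-fold lower on the shifted intensities. This bound does not hold under normexp, which gave -0.41 and did not pass (adjusted p = 0.076). Its test rests on signals near background, so no p is given beside the bound. For such a bound, each *L3mbtl2*-KD value below the dimmest clearly detected probe of its array was raised to that level before the group means were compared.

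All 4 parietal endoderm markers, each marked as defining, were tested, and the median was -0.85. In limma 3 passed with lower expression (10.8% of all genes), and in the adjusted one-way test 0 did. One of the 3, *Thbd*, had a clear signal over background on 1 of the 4 *L3mbtl2*-KD arrays. Without it 2 of 3 markers passed, 1 of them (*Plat*) at more than 2-fold, and the median was -0.65. Their summed signal was 0.93, 1.16, 0.96 and 1.35 in the control samples and 0.68, 0.78, 0.73 and 0.76 in the *L3mbtl2*-KD samples, and the brightest gene was *Pth1r*. *Plat* (log2 fold change -1.05, adjusted p = 0.048) and *Pth1r* (-0.65, adjusted p = 0.021) were measured on all arrays, and *Snai1* (-0.05, adjusted p = 0.88) did not pass. *Thbd* was at -1.64, and at -0.33 with normexp, on signals near background. The calls were narrow. *Thbd* lost its call without control replicate 2, 3 or 4 or *L3mbtl2*-KD replicate 1 (highest adjusted p 0.070), *Plat* without any single sample other than control replicate 1 (highest adjusted p 0.12) and *Pth1r* without *L3mbtl2*-KD replicate 1 (adjusted p = 0.051) and without the filter on dim probes (adjusted p = 0.054). *Plat* was also lost with normexp (-0.49, adjusted p = 0.13), quantile normalization, no filter on dim probes and the slide as a block, which with the fits above makes 12 of 19 alternatives. *Thbd* was also lost with quantile normalization and no filter on dim probes. With normexp none of the 4 markers was called at 2-fold in limma and 2 passed at any fold.

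Of 20 feeder fibroblast markers 19 had a named probe and 14 were tested, and the median was -1.59. Of the 14, 9 passed with lower expression (10.8% of all genes), 8 of them at more than 2-fold (3.21% of all genes). These counts include *Col3a1* and *Dcn*, whose probes entered the test through the control arrays alone. The same holds for *S100a4*, which was tested and did not pass. Of the 11 markers with a clear signal on all 8 arrays 7 passed with lower expression, 6 of them at more than 2-fold, and the median was -1.45. Normexp background correction gave 8 that passed, 5 of them at more than 2-fold, and a median of -0.81. Their summed signal was 6.55, 13.8, 12.1 and 15.4 in the control samples and 5.44, 5.33, 5.87 and 5.71 in the *L3mbtl2*-KD samples, and the brightest gene was *Tagln*. Control replicate 1 was the lowest control sample in 11 of the 14 genes, and its sum lay closer to the *L3mbtl2*-KD samples than to the other controls. *Tagln* was lower in control replicate 1 (1.73) than in all *L3mbtl2*-KD samples (1.91 to 2.18). It did not pass (-0.58, adjusted p = 0.17), but passed without that sample (-0.88, adjusted p = 0.0023). All 6 defining markers tested were higher in control replicate 1 than in every *L3mbtl2*-KD sample. Of the defining markers, *Col1a1* gave -1.87, -0.15, -0.65 and -0.23 in the control samples and -3.21, -2.35, -2.98 and -3.25 in the *L3mbtl2*-KD samples (log2 fold change -2.22, adjusted p = 0.0062). *Col1a2* (-2.81, adjusted p = 0.0044), *Pdgfrb* (-1.57, adjusted p = 0.0013) and *Thy1* (-0.86, adjusted p = 0.010) fell as well. *Col3a1* and *Dcn* were not well above background on any *L3mbtl2*-KD array, and on the shifted intensities *Col3a1* was at least 7.81-fold lower and *Dcn* at least 12.1-fold. These bounds do not hold under normexp, which gave -1.55 for *Col3a1* and -1.88 for *Dcn*, and *Pdgfrb* was at -0.84 there. *Lum* and *Postn* were not well above background on any array. *Acta2* (-2.72, adjusted p = 0.0030), which is not a defining marker, fell too. The sort for *Vasa* would leave cells without the reporter signal, such as feeder cells, out of the *L3mbtl2*-KD samples, and it cannot be told apart from the knockdown here. The part of these cell types in the lower signal of the basement membrane genes was not tested.

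**Figure D5:**
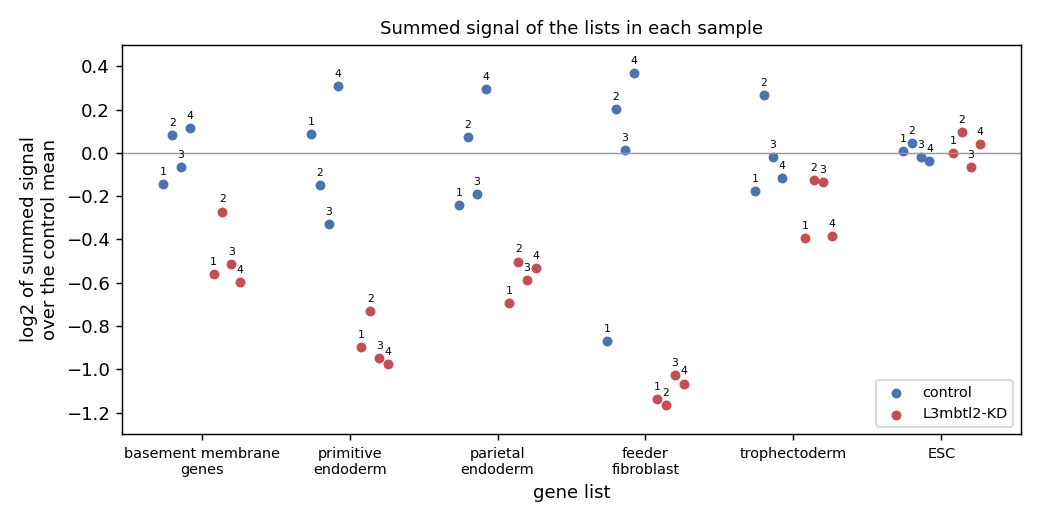
Log2 of the summed signal of each list over its mean in control ESCs, for control (blue) and *L3mbtl2*-KD (red) samples with replicate numbers. The *L3mbtl2*-KD samples lie below all control samples for the primitive endoderm, parietal endoderm and feeder fibroblast lists, and the feeder sum of control replicate 1 lies nearest to them. They do so for the basement membrane list as well, where the brightest gene is *Sparc*, whose own groups overlap.

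Of 6 trophectoderm markers 5 were tested, and none passed in limma (1 was lower at an unadjusted p under 0.05, and the one-way test after adjustment gave 0). The median was -0.48, and the summed signal was 0.99, 1.35, 1.11 and 1.04 in the control samples and 0.85, 1.03, 1.02 and 0.86 in the *L3mbtl2*-KD samples, with *Eomes* the brightest. The probes of *Cdx2*, *Gata3* and *Krt7* entered the test through the control arrays and had a clear signal on 3 of the 4 *L3mbtl2*-KD arrays. Over the 2 markers with a clear signal on every array the median was -0.19. With normexp background correction the median of the 5 markers was -0.15. Of the defining markers *Eomes* was at a log2 fold change of -0.14 (adjusted p = 0.47) and *Cdx2* at -0.81 (adjusted p = 0.31), with an adjusted p of 0.043 for *Cdx2* with the replicate number as a block (range over the alternatives 0.043 to 0.58). *Elf5* was not well above background on any array.

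The ESC markers were measured in all samples, as the label of the cells implies. All 10 were tested, none was called at 2-fold, and the median was -0.14. Of the 10, 1 passed with lower and 1 with higher expression, against 10.8% and 9.35% of all genes. With the replicate number as a block these counts were 2 and 2, against 23.8% and 22.2% of all genes. Both genes that passed without the block are named after their values were seen. The lower gene, *Klf4*, lost its call in 5 of 19 alternatives (highest adjusted p 0.071), and the higher gene, *Dppa4*, in 8 of 19 (highest adjusted p 0.086), among them normexp, which leaves 0 higher. The summed signal of the 10 was 312, 320, 305 and 302 in the control samples and 309, 331, 296 and 318 in the *L3mbtl2*-KD samples, and the brightest gene was *Dppa5a*, which was higher with the replicate number as a block (0.17, adjusted p = 0.032) and did not pass without it (adjusted p = 0.30). The defining markers *Pou5f1* (log2 fold change -0.17, adjusted p = 0.17), *Sox2* (-0.12, adjusted p = 0.49) and *Nanog* (-1.32, adjusted p = 0.096) were well above background on all 8 arrays and did not pass the test. Leaving out 1 sample gave -1.74 to -0.95 for *Nanog*, which passed without *L3mbtl2*-KD replicate 4 alone (adjusted p = 0.027), and normexp gave -0.69.

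The genes whose pattern over the 8 arrays was closest to the mean pattern of the basement membrane genes were *Trp53i11*, *Nfil3*, *Thra*, *Gata4* and *Parm1*. Closeness was the root-mean-square difference of values centred on the mean of each gene, which was 0.07 log2 units for *Trp53i11* and *Nfil3*, 0.08 for *Thra* and 0.09 for *Gata4* and *Parm1*. The mean pattern itself was 0.24, 0.49, 0.42 and 0.65 in the control samples and -0.63, -0.21, -0.39 and -0.57 in the *L3mbtl2*-KD samples. Of the 10 genes, *Lamb1* (0.07) was the closest to this mean, followed by *Nid1* (0.13), and *Lama1* (0.70) and *Col4a2* (0.64) were the farthest.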

How the data were processed

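Gene expression was measured in 4 control and 4 *L3mbtl2*-KD samples, 1 array each. The authors deposited the intensity of every spot, background-subtracted by Agilent Feature Extraction 10.7.3.1 and not normalized between arrays. A log2 table came with them, and a 75 percentile shift in GeneSpring is named in the methods. Its columns correlated at 0.9999 or more with log2 intensities shifted in that way and centred by probe median (39429 probes), so scale and centring are those. Its column medians were -0.02, 0.02, 0.05 and -0.02 for control replicates 1 to 4 and -0.04, 0.02, -0.06 and 0.08 for *L3mbtl2*-KD replicates 1 to 4. The number of arrays limits the precision.

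Here the deposited intensity was put on the log2 scale and shifted by the array's 75th percentile. Control features and outlier-flagged spots were dropped, spots of a probe were averaged, and no spot was saturated. On each array 59.5 to 66.6% of spots were well above background. RefSeq accessions gave names to 26055 of 39429 probes (GRCm38.p6, used for names, promoters and neighbours). Probes well above background throughout at least 1 group were tested (23525 probes, 85 of them lacking a value on some array). A gene was represented by its tested probe of highest mean signal.

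The test was limma 3.58.1 (lmFit, eBayes) under R 4.3.3, and p-values were adjusted by Benjamini-Hochberg over all tested probes. Single values and pairs of genes were tested with two-sided exact permutation tests (70 splits, smallest p 0.0286). The code was tested on simulated data. All genes and lists were chosen with earlier results of these data known. Genes named are the 10 basement membrane genes, the called genes of each list (up to the 5 largest changes), its defining markers, the 5 genes closest in pattern, and *L3mbtl2* and *Ddx4*. Others are said to be chosen after their values were seen, or are named because they make up a count of 5 or fewer or changed with the replicate block.

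Both groups lay on both slides, but control samples were at positions 1 and 3 and *L3mbtl2*-KD samples at 2 and 4, so position and group cannot be told apart. Deviations from the group means correlated at 0.38 to 0.58 between samples of the same replicate number and at -0.44 to 0.25 between others (23440 probes), and an alternative fit used the number as a block. The values show this pairing, and no label states it. Alternatives were normexp background correction (offset 50, on median spot intensities), quantile normalization, the deposited table, other filters on dim probes, a block for slide or for replicate number, an intensity trend, the one-way test of the methods, other fold thresholds, other probe rules and leaving out each sample.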

Additional observations from a re-analysis of the deposited data

Results flagged for a closer look

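A sample was far from the other 3 of its group in 9 of 212 groups, by the gap to the nearest sample over the range of the group, and none of the 20 groups of the basement membrane genes was among them. Chance flags about 1 in 20 groups, which is 10.6 of 212. The gap was 0.839 of the range for *Frem2* in *L3mbtl2*-KD replicate 1 (-1.95, where the others averaged -2.80) and 0.844 for *Plod3* in control replicate 1 (0.60 against 1.05). It was 0.849 for *Crtap* in *L3mbtl2*-KD replicate 4 (3.66 against 3.42), 0.865 for *Sox17* in control replicate 3 (-2.74 against -2.51) and 0.903 for *Dab2* in *L3mbtl2*-KD replicate 1 (-4.41 against -5.53). It was 0.887 for *Pth1r* in control replicate 4 (-0.15 against -0.67) and 0.86 for *Tagln* in control replicate 1 (1.73 against 2.94). It was 0.909 for *Pou5f1* in *L3mbtl2*-KD replicate 2 (4.43 against 4.35) and 0.894 for *Nanog* in control replicate 2 (-1.38 against -2.83).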

How the results depend on the processing

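The number of basement membrane genes called lower was 3 to 6 under all alternatives, and 0 were called higher under any. *Lama1*, *Col4a1* and *Col4a2* were called under each of them, whereas *Nid1* was lost with normexp background correction, without the filter on dim probes, with probes above background on all arrays, with the brightest probe alone, with the mean of probes, in the adjusted one-way test and without control replicate 1 or 3. The median log2 fold change lay between -0.72 (within slide 2) and -0.52 (within slide 1), and between -0.68 and -0.55 when 1 sample was left out. With the replicate block the count was 4 and the median -0.59. Beyond the genes and counts for which the results give it, the replicate block changed no other call. *Lama1*, *Lamb1*, *Col4a1*, *Col4a2* and *Nid1* passed on the brightest probe under all 19 alternatives. *Sparc* passed under 10 of 19, and its adjusted p was 0.11 without the filter on dim probes and 0.074 in the one-way test.

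Differences between paired genes passed after adjustment (0.038) with normexp background correction for *Lama1* and *Lama5* (-2.25), *Lamb1* and *Lamc1* (-0.56) and *Nid1* and *Nid2* (-0.50), and without *L3mbtl2*-KD replicate 3 for *Lama1* and *Lama5*, *Lamb1* and *Lamc1* and *Col4a1* and *Col4a2*. A pair can pass this adjustment only when most of the 4 pairs reach the smallest exact p together, as the named pairs did in these fits. The difference of *Lama1* and *Lama5* was -2.22 without normexp, where its p was already the smallest possible. Why more pairs reached the smallest p in these fits was not tested. Leaving out 1 sample gave -2.35 to -1.96 for *Lama1* and *Lama5*, -0.71 to -0.49 for *Lamb1* and *Lamc1*, 0.21 to 0.32 for *Col4a1* and *Col4a2* and -0.60 to -0.42 for *Nid1* and *Nid2*. Probes near background compress under normexp, which adds an offset, and *Foxa2* did not pass there. *Amn* and *Col6a1*, named after their values were seen, each lost their call when any of 6 single samples was left out. The scalings moved the median of all genes by less than 0.1.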
